A study of Homo sapiens with 6 samples.

Results

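RN7SL1, RN7SL2, RN7SL3, RN7SK and RPPH1 are 5 short non-coding RNA genes that RNA polymerase III transcribes. They were chosen by name because they hold most of the TPM (a length-normalized level scaled to a total of 1000000 in each sample) in all samples of the table, and they are 5 of its 25528 gene symbols. Their levels are therefore a description, and the tests below concern differences between the treatments. The samples are DU-145 cells, a line of castration-resistant prostate cancer, that carry a lentiviral shRNA against XIST under a doxycycline (DOX) inducible promoter (DU-145/tet-XISTshRNA) and were selected for growth in puromycin or geneticin. RNA-seq was done on 3 cultures given 0.1% DMSO as vehicle and 3 given DOX at 500 ng/ml, for 7 days by the study's methods. Both groups carry the vector, and no DOX-treated cells with a control shRNA are among these samples, so DOX itself and silencing of XIST cannot be told apart. XIST, the targeted RNA, was listed at 0 TPM throughout, which leaves no reading of its knockdown, and EIF4A1, a translation initiation factor gene that cells in general use, was listed at 0 as well. The epithelial markers EPCAM, CDH1, KRT8, KRT18 and KRT19 were present in every sample (lowest values from 5.11 TPM for CDH1 to 75.9 TPM for KRT18), and of the prostate luminal markers given here KLK3 was listed at 0 and KLK2 and TMPRSS2 reached at most 0.0416 TPM. Of the stromal, immune and endothelial markers given here, CD3E, COL1A2 and DCN were listed at 0, PTPRC, PDGFRB, PECAM1, VWF and CDH5 reached at most 0.0538 TPM, COL1A1 lay between 0.269 and 0.616 TPM, and CD68, a lysosomal protein gene that is used as a macrophage marker, between 11.4 and 19.6 TPM.

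RN7SL1, RN7SL2 and RN7SL3 encode copies of 7SL RNA, the scaffold of the signal recognition particle that brings ribosomes making secreted and membrane proteins to the endoplasmic reticulum. RN7SK encodes 7SK RNA, which holds the kinase P-TEFb (CDK9 with a cyclin T) in an inactive particle and so limits release of paused RNA polymerase II. RPPH1 encodes the RNA of RNase P, which trims the 5′ leader from precursor tRNAs. The RNAs are made by RNA polymerase III and normally carry no long poly(A) tail, whereas the libraries were made with a kit for polyadenylated RNA. How much of each RNA passed that selection was not measured, and whether this differed between the samples was not tested. In bulk RNA, fewer cells of a type and less RNA per cell cannot be told apart.

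The 3 copies of 7SL lie on chromosome 14 in GRCh38, at chr14:49586580-49586878 on the plus strand (RN7SL1), chr14:49862551-49862849 on the minus strand (RN7SL2) and chr14:49853616-49853914 on the minus strand (RN7SL3), by RefSeq gene positions. RN7SK lies at chr6:52995620-52995951 on the plus strand and RPPH1 at chr14:20343071-20343411 on the minus strand. Each is annotated as a non-coding gene. A read can be given to the right 7SL copy only where it covers a base that differs between the copies. Each copy is 299 bases long, and 11 positions differ between them. RN7SL2 differs from RN7SL1 at 4 positions, which is an identity of 98.7%. RN7SL3 differs from RN7SL1 at 7 positions (identity 97.7%) and from RN7SL2 at 11 (96.3%). How reads matching more than 1 copy were counted is not given in the sources used here, so the division of 7SL reads among the copies is uncertain, and ratios to other RNAs use their sum.

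The deposited TPM of these genes carried a length term that was far shorter than the RNAs. Reads per gene were recovered from the TPM together with the authors' mean normalized counts, and 100% of the 102298 values came out as whole reads (tolerance 0.001 read) when each gene's length was first reduced by a number of bases particular to the sample. That deduction was 291.64, 293.82 and 290.07 bases in the vehicle samples, in the order of their replicate numbers, and 291.30, 291.45 and 292.00 bases in the DOX samples. The 299 bases of a 7SL copy were thus counted as 7.36, 5.18 and 8.93 bases in the vehicle samples, and as 7.70, 7.55 and 7 bases in the DOX samples. RN7SK (332 bases) was left with 38.18 to 41.93 bases and RPPH1 (341 bases) with 47.18 to 50.93. To show how little of each RNA that is, the first 60 bases of RN7SK (chr6:52995620-52995679) and RPPH1 (chr14:20343352-20343411) are printed with capitals over as many bases as the mean length term held.
RN7SK: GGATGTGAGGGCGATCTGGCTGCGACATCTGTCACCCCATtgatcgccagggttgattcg
RPPH1: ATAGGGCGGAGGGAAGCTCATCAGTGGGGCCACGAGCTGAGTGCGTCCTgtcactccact
The sequences are written 5′ to 3′ in GRCh38. The capitals cover 40 and 49 bases and mark an amount, not a place that was read.

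**Figure D1:**
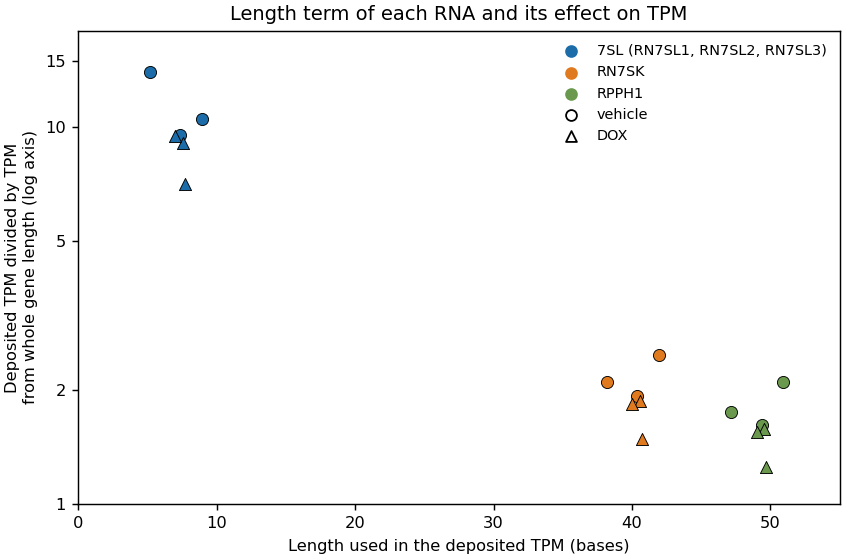
Length term of each RNA in the deposited TPM (bases, x axis) against the deposited TPM divided by TPM computed from the whole gene length (log y axis), for each of the 3 vehicle (circles) and 3 DOX samples (triangles). The 7SL copies sit at 5.18 to 8.93 bases and 7.07 to 14.02 times, and RN7SK and RPPH1 at 38.18 to 50.93 bases and 1.25 to 2.49 times.

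TPM of a 7SL copy was 9.54, 14.02 and 10.5 times the TPM computed from whole gene lengths in the vehicle samples, and 7.07, 9.07 and 9.49 times in the DOX samples. For RN7SK the multiple ran from 1.49 to 2.49, and for RPPH1 from 1.25 to 2.11. By mean TPM as deposited, RN7SL1 ranked 1, RN7SK 2, RN7SL2 3, RPPH1 4 and RN7SL3 6 of all genes. On whole-length TPM RN7SK ranked 1, RN7SL1 2, RN7SL2 3, RPPH1 4 and RN7SL3 215, so that the same 4 genes led and RN7SL3 stood far lower. With no division by length at all, by reads as a share of all reads on genes, RN7SK ranked 2, after MALAT1, RN7SL1 ranked 4, RN7SL2 12, RPPH1 19 and RN7SL3 4630. Among the genes of the TPM table that had reads, the shortest is 299 bases long. Lengths of the listed genes without reads could not be recovered. The authors' mean-count table holds 964 further genes, and of the 958 with a RefSeq length 942 are of 293 bases or fewer. RMRP, the RNA of RNase MRP and a close relative of RPPH1, is one of them, with an authors' mean normalized count of 11639 and no TPM.

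The 5 RNAs held a larger share of TPM with DOX than with vehicle, by 5.98 percentage points. They held 76.0%, 74.6% and 67.5% of TPM with vehicle (replicates 1 to 3) against 82.6%, 76.0% and 77.4% with DOX. The means were 72.7% ± 4.58 and 78.7% ± 3.48 (SD, n = 3 each), and the groups did not overlap, with the highest vehicle and lowest DOX samples at 75.97% and 75.98%. A two-sided exact permutation test gave p = 0.1, the smallest that 3 against 3 allows. The difference was 3.37 points without vehicle replicate 3, the sample with the smallest share, and 3.37 to 7.62 points with each sample left out in turn. As reads, the same RNAs were a small part of each library. They took 2.14%, 1.72% and 1.92% of the reads on genes in the vehicle samples and 3.62%, 1.99% and 2.41% in the DOX samples (1.92% ± 0.210 and 2.67% ± 0.848, SD, n = 3 each, exact permutation p = 0.2), and the groups overlapped. On TPM from whole gene lengths the share was 16.3% to 19.1% with vehicle and 17.6% to 26.9% with DOX (exact permutation p = 0.3). DOX was higher in 3 of 3 same-numbered pairs on each of these scales, and an exact sign-flip test over the pairs gave p = 0.25, its smallest value.

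**Figure D2:**
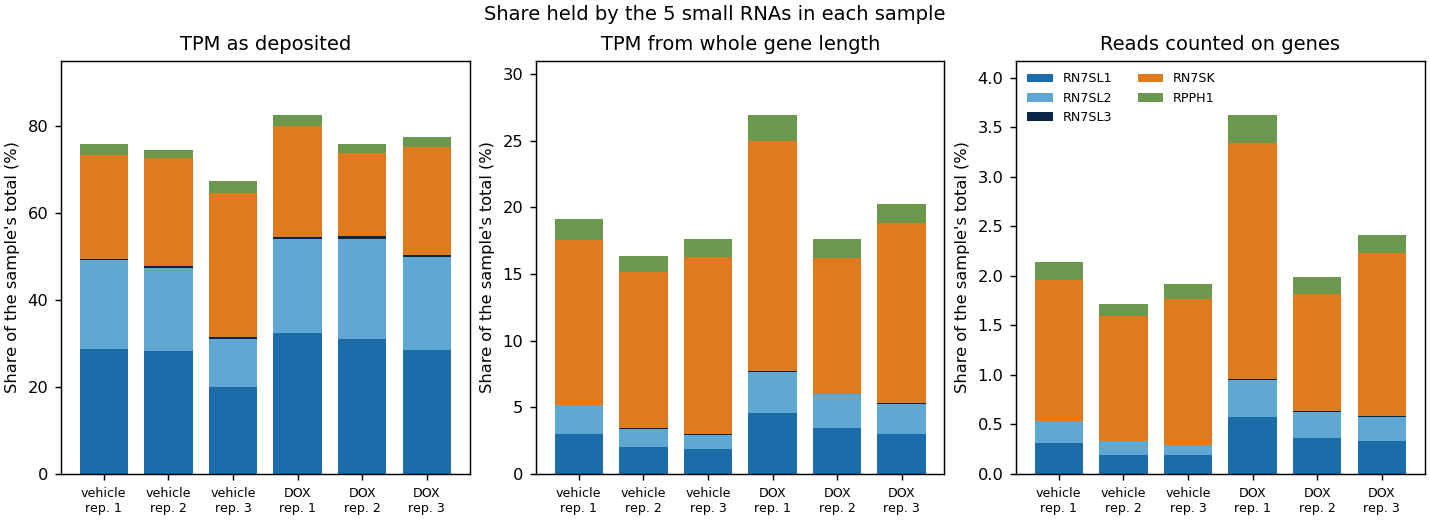
Share of each sample's total (%, y axis) held by the 5 RNAs, stacked by gene, for TPM as deposited, TPM computed from whole gene length, and reads counted on genes, with a separate y scale in each panel. The totals run from 67.5% to 82.6% of TPM, from 16.3% to 26.9% of whole-length TPM and from 1.72% to 3.62% of reads, and RN7SK (orange) fills most of each bar for whole-length TPM and for reads, while for deposited TPM 7SL (blue) fills most of it in all samples but vehicle replicate 3.

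RN7SL1 was higher with DOX on the read scale. Its reads, scaled between samples by the median of ratios (normalized reads), were 56844, 36918 and 35483 with vehicle (replicates 1 to 3) against 101872, 64511 and 59606 with DOX. Every DOX sample lay above every vehicle sample, and within same-numbered pairs the DOX sample was 1.79, 1.75 and 1.68 times the vehicle sample. Across all 11672 genes tested, the groups of 9.77% lay apart in that direction on this scale. As deposited TPM, RN7SL1 read 288172, 282294 and 199651 with vehicle and 324820, 310703 and 284365 with DOX. On that scale the groups overlapped, since DOX replicate 3 lay below vehicle replicate 1.

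RN7SL2 gave 40135, 25145 and 19719 normalized reads with vehicle and 67722, 47886 and 44793 with DOX. The groups did not overlap, and the pairs differed by 1.69, 1.90 and 2.27 times. Its TPM was 203464, 192274 and 110954 with vehicle and 215934, 230632 and 213696 with DOX, without overlap, as for 0.223% of all genes in that direction on the TPM scale and 30.7% in the other. RN7SL3, the least abundant copy, gave 781, 459 and 692 normalized reads with vehicle and 1413, 1051 and 956 with DOX, again without overlap and with pairs at 1.81, 2.29 and 1.38 times. Its TPM of 3509 to 3959 with vehicle and 4507 to 5062 with DOX also did not overlap. The value in vehicle replicate 3 rests on 200 reads, which is 0.00366% of the reads on genes (95% Wilson interval 0.00319% to 0.00421%, for counting error only).

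RN7SK did not move in one direction. Its normalized reads were 257889, 238951 and 276679 with vehicle and 424500, 213169 and 298539 with DOX. DOX replicate 1 was the highest of all samples and DOX replicate 2 the lowest, so the groups overlapped, and the pairs gave 1.65, 0.892 and 1.08 times. As TPM, RN7SK read 238410, 247894 and 331558 with vehicle and 256072, 191158 and 249244 with DOX, which also overlapped.

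RPPH1 gave 33957, 24344 and 28958 normalized reads with vehicle and 49981, 30325 and 32927 with DOX. The groups overlapped, but DOX was higher in each pair, by 1.47, 1.25 and 1.14 times. Its TPM was 25669, 20437 and 28569 with vehicle and 24690, 22254 and 22441 with DOX, with the DOX samples inside the vehicle range.

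**Figure D3:**
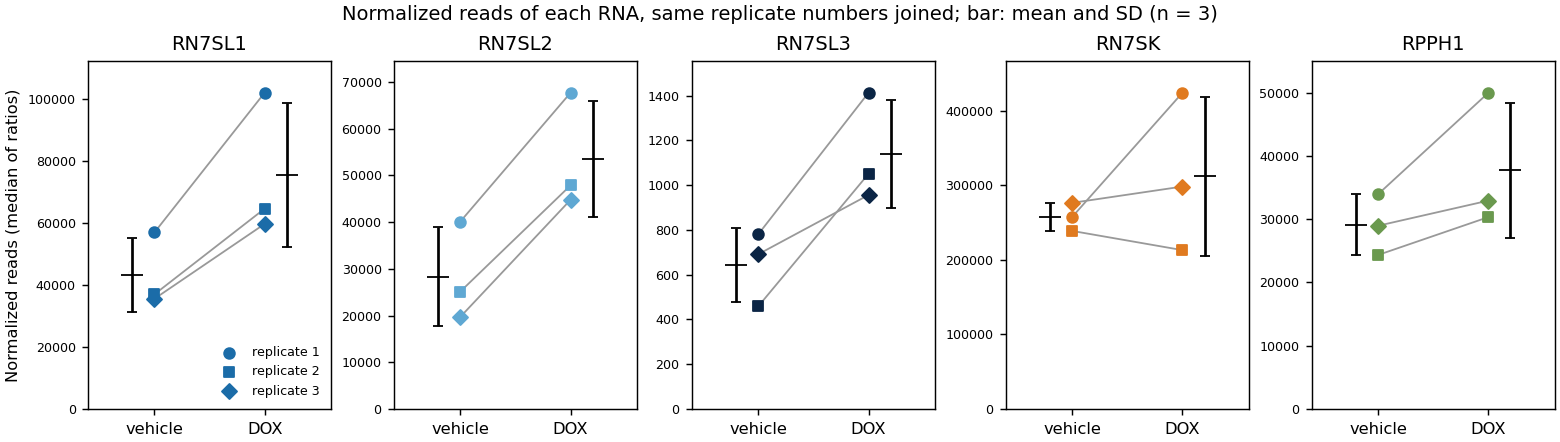
Normalized reads (median-of-ratios scaling, linear y axis from 0, a separate scale per panel) of each RNA in 3 vehicle and 3 DOX samples, with same replicate numbers joined and the mean and SD beside each group. DOX is the higher sample of every pair for RN7SL1, RN7SL2, RN7SL3 and RPPH1, with no overlap between groups for the 7SL copies, whereas for RN7SK it is the lower sample in pair 2.

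On whole-length TPM, where genes can be compared per base, the order of the levels was RN7SK, RN7SL1, RN7SL2, RPPH1 and RN7SL3. RN7SK stood at 124625 ± 7915 with vehicle and 136508 ± 35261 with DOX (SD, n = 3 each). RN7SL1 stood at 23097 ± 6178 and 36722 ± 8272, and RN7SL2 at 15190 ± 5543 and 26163 ± 4063. RPPH1 stood at 13675 ± 2088 with vehicle, inside the spread of RN7SL2 there, and at 16133 ± 3152 with DOX. RN7SL3 stood at 345 ± 84.9 and 559 ± 78.4.

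The fit of single genes gave different answers on different scales. Calls required both an adjusted p under 0.05 and a change of more than 1.5 times. On log2(TPM + 1), limma called 0 of the 5 RNAs, where 0.0257% of all genes were called higher and 2.98% lower. RN7SL2 came closest, with a log2 fold change of 0.43 (SE 0.12, adjusted p = 0.0432 from limma), a fold under the minimum. RN7SL1 had 0.27 (SE 0.09, adjusted p = 0.0663 from limma) and RN7SL3 0.31 (SE 0.18, adjusted p = 0.221 from limma). RN7SK had -0.23 and RPPH1 -0.09 (adjusted p = 0.121 and 0.616 from limma). With the replicate number as a block, limma on TPM again called 0 of the 5, where 0.129% of genes were called higher and 19.0% lower, and the adjusted p of RN7SL2 was 0.0249. Without vehicle replicate 3 the TPM values of RN7SL1 and RN7SL2 were 0.10 and 0.15, and without vehicle replicate 1 RN7SL2 was called higher (0.59, adjusted p = 2.26e-06 from limma). Calls rose in general without vehicle replicate 1, to 25 higher and 1257 lower of 11672 genes, against 3 and 348 with all samples. The median of all genes on this scale was -0.35. All 5 RNAs stood above it, but a larger share for them lowers the other genes within the fixed total, so this is no separate result.

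On the recovered reads, limma voom gave log2 fold changes of 0.80 for RN7SL1, 0.95 for RN7SL2 and 0.89 for RN7SL3, with a median over all genes of 0.01. Without a block, these had adjusted p-values of 0.208, 0.205 and 0.205 from limma voom and none was called, as 0.0% of all genes were called higher and 0.00857% lower there. With the replicate number as a block, all 3 copies were called higher, where 1.37% of all genes were (2.35% lower). The division of reads among these near-identical copies is uncertain, so the 3 calls are not separate results. Their summed reads were not fitted. The blocked values were 0.80 for RN7SL1 (SE 0.09, adjusted p = 0.00405 from limma voom), 0.96 for RN7SL2 (SE 0.10, adjusted p = 0.00405 from limma voom) and 0.89 for RN7SL3 (SE 0.14, adjusted p = 0.0100 from limma voom). RN7SK had 0.22 (SE 0.14, adjusted p = 0.301 from limma voom) and was not called. RPPH1 had 0.35 (SE 0.10, adjusted p = 0.0366 from limma voom), a fold under the minimum.

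On whole-length TPM with the block, limma also called all 3 copies higher (0.68, 0.83 and 0.72, adjusted p = 0.00731, 0.00731 and 0.0173 from limma), where 0.643% of genes were called higher and 4.93% lower. The calls of the 7SL copies did not hold under every setting. When each sample was also corrected for GC content and gene length by splines, the blocked values were 0.54, 0.71 and 0.60 for RN7SL1, RN7SL2 and RN7SL3 (adjusted p = 0.0836, 0.0896 and 0.0896 from limma voom), with 0.00922% of genes called higher, 0.0645% lower and 0 of the 3 copies among them. The 7SL copies hold 62.2% to 62.9% G and C in their longest GENCODE transcripts against a median of 47.1% over genes, and few tested genes are as short, with 22 at or below 350 bases and a median length of 3416 bases. In the blocked voom fit without replicate number 1, RN7SL1 and RN7SL3 were no longer called (0.77 and 0.90, adjusted p = 0.0517 and 0.0907 from limma voom), and RN7SK turned to -0.03. RN7SL2 was still called there (1.05, adjusted p = 0.0223 from limma voom), where 7 of 11672 genes were called higher and 5 lower. All 3 copies were called without number 2 (231 genes higher, 649 lower) and without number 3 (33 higher, 47 lower). On TPM with the 5 RNAs left out of the total, limma with the block called RN7SL3 alone of them (0.67, adjusted p = 0.0431 from limma). RN7SL1 and RN7SL2 had 0.63 and 0.79 there (adjusted p = 0.154 and 0.110 from limma). In that fit 45 of 11672 genes were called higher and 205 lower.

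**Figure D4:**
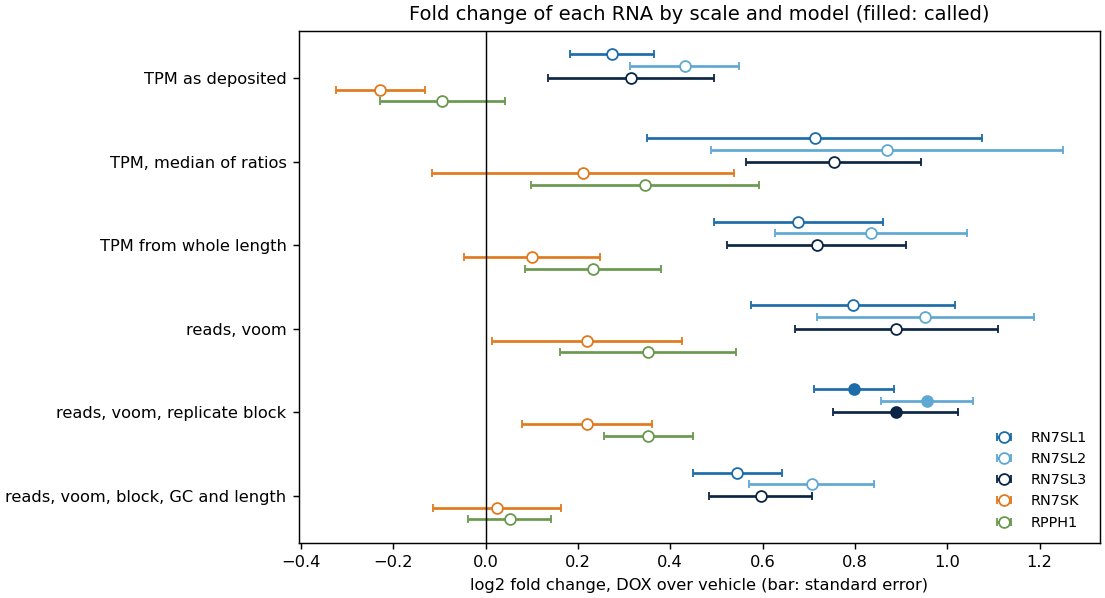
log2 fold change of each RNA, DOX over vehicle (x axis, bars are standard errors, n = 3 samples a group), by scale and model (rows), with filled points where the gene was called. The 7SL copies lie right of 0 in every row, from 0.27 to 0.96, and of the rows drawn are filled only for voom on reads with the replicate block (blocked fits on TPM are not drawn), while RN7SK and RPPH1 lie left of 0 on TPM as deposited and right of 0 in the other rows.

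Ratios between genes of the same sample do not depend on the scaling total. RN7SL2 was read 0.706, 0.681 and 0.556 times as often as RN7SL1 with vehicle and 0.665, 0.742 and 0.751 times with DOX, and the groups overlapped (exact permutation p = 0.3). RN7SL3 stood at 0.0124 to 0.0195 of RN7SL1 with vehicle and 0.0139 to 0.0163 with DOX (exact permutation p = 0.9). The balance among the copies thus showed no difference beyond the spread between samples.

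RN7SK was lower relative to 7SL with DOX in 3 of 3 pairs. In reads, its ratio to the sum of the 3 copies was 2.64, 3.82 and 4.95 with vehicle and 2.48, 1.88 and 2.83 with DOX (exact permutation p = 0.2), and vehicle replicate 1 lay inside the DOX range. The reads of RPPH1 relative to 7SL were 0.347, 0.389 and 0.518 with vehicle and 0.292, 0.267 and 0.313 with DOX, without overlap (exact permutation p = 0.1, the smallest possible). In TPM the same ratio was 0.0518, 0.0427 and 0.0908 with vehicle and 0.0453, 0.0407 and 0.0446 with DOX, and the groups overlapped (exact permutation p = 0.3), as they did for RN7SK to 7SL (0.481, 0.519 and 1.05 against 0.470, 0.350 and 0.496, exact permutation p = 0.2). Benjamini-Hochberg adjustment over the 4 ratios gave 0.4 to 0.9 on either scale, and the exact sign-flip test over pairs gave p = 0.25 for both ratios to 7SL.

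**Figure D5:**
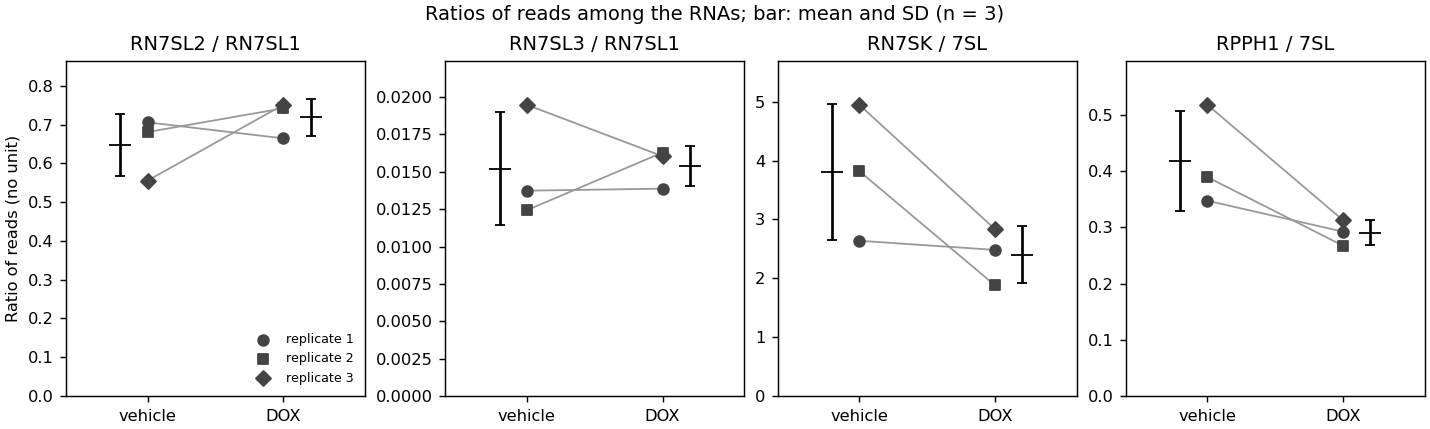
Ratios of reads (y axes, no unit, from 0) in 3 vehicle and 3 DOX samples, with same replicate numbers joined and the mean and SD beside each group. The ratios of RN7SK and RPPH1 to 7SL are lower with DOX in every pair, at 1.88 to 2.83 and 0.267 to 0.313, and the ratios among the 7SL copies cross.

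The share taken by the 5 RNAs fixed what was left for every other gene on the TPM scale. Other genes shared 240327, 253592 and 325376 TPM with vehicle and 173977, 240191 and 225691 TPM with DOX. This is a log2 difference of -0.36, beside the median log2 fold change of -0.35 over the 11672 genes. On TPM as deposited, limma called 348 genes lower and 3 higher. With the 5 RNAs left out of the total, 1 gene was called lower and 0 higher. Adding the replicate block to that rescaling gave 205 lower, 183 of them among the 348, and 45 higher. Without the block, 273 lower and 70 higher met the fold minimum with an unadjusted p under 0.05. With 1 common deduction of 291.71 bases in all samples, limma called 0 genes in either direction, and 2609 lower and 9 higher met those unadjusted limits.

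The protein partners of these RNAs were read from lists of named genes. The 8 signal recognition particle and receptor genes (SRP9, SRP14, SRP19, SRP54, SRP68, SRP72, SRPRA and SRPRB) had 0 calls by limma on TPM and 0 by voom with the block. Their median log2 fold change was -0.37 on TPM, where that of all genes was -0.35, and 0.04 on reads with the block, where that of all genes was 0.01. SRP9, the highest of them in TPM, which encodes a protein that binds the Alu end of 7SL, gave 3482 to 4375 normalized reads with vehicle and 3284 to 3991 with DOX.

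Of 7 genes of the 7SK particle and P-TEFb, 6 were tested and 0 were called by limma on TPM or by voom with the block (medians -0.39 and -0.01). CCNT2, a cyclin T that activates CDK9, had the lowest value of the list, -0.53 by voom with the block (SE 0.12, adjusted p = 0.0195 from limma voom), a fold under the minimum. Its normalized reads were 1165, 1460 and 1570 with vehicle and 791, 1204 and 876 with DOX, which overlapped, and its value was -0.15 after the GC and length correction. On TPM with the block CCNT2 was called lower (-0.84, adjusted p = 4.29e-04 from limma), on a scale where 19.0% of all genes were called lower. Of 11 RNase P and RNase MRP protein genes, 8 were tested, with 0 called on TPM and 1 higher by voom with the block (medians -0.18 and 0.18). That gene is RPP25L, which encodes a relative of an RNase P subunit, at 100, 84.9 and 79.5 normalized reads with vehicle and 187, 135 and 132 with DOX (0.78, SE 0.20, adjusted p = 0.0314 from limma voom). It was not called without the block or after the GC and length correction (0.42).

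Among 18 subunit genes of RNA polymerase III, 0 were called on TPM and 1 was called higher by voom with the block (medians -0.25 and 0.14). That gene is POLR2L, a small subunit that the 3 nuclear polymerases share, with 516, 253 and 456 normalized reads with vehicle and 889, 575 and 529 with DOX (0.80, SE 0.16, adjusted p = 0.0147 from limma voom), and 0.45 after the GC and length correction, without a call. Among 19 genes of its transcription factors and of their regulator MAF1, 0 were called by either fit (medians -0.33 and 0.06). BDP1, a component of TFIIIB, had the lowest value by voom with the block, -0.55 (SE 0.15, adjusted p = 0.0342 from limma voom), with overlapping groups of 3908, 4603 and 3983 normalized reads with vehicle and 2035, 4512 and 2428 with DOX. MAF1 had the highest, 0.57 (SE 0.11, adjusted p = 0.0150 from limma voom), also a fold under the minimum. The groups of MAF1 overlapped too, at 893, 577 and 633 normalized reads with vehicle and 1378, 894 and 799 with DOX. Voom with the block did not call BDP1, since its fold was under the minimum. Limma on TPM with the block called 3 of the 19 lower, BDP1 among them (-0.76), where 19.0% of all genes were called lower.

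Of 13 listed symbols for proteins that bind the ends of polymerase III transcripts or degrade them, some of them older and newer names of one gene, 10 were in the table and tested, with 1 called lower and 0 higher by each fit (medians -0.47 and -0.06). TROVE2, which encodes the Ro60 protein that binds misfolded small RNAs and Y RNAs, was called lower by limma on TPM (-1.05, SE 0.29, adjusted p = 0.0434 from limma) and by voom with the block (-0.68, SE 0.14, adjusted p = 0.0162 from limma voom). Its normalized reads were 2165, 2366 and 2161 with vehicle and 1021, 1990 and 1325 with DOX, without overlap, as for 10.5% of all genes in that direction. The call was lost by voom without the block (-0.70, adjusted p = 0.216 from limma voom), after rescaling without the 5 RNAs (-0.72, adjusted p = 0.230 from limma), with 1 common length deduction (adjusted p = 0.114 from limma), and on TPM without vehicle replicate 2 or 3 or DOX replicate 1 or 3 (-1.06 to -0.69, adjusted p = 0.0800 to 0.457 from limma). TROVE2 had no GC value and so no corrected fit. SSB, which encodes the La protein that binds the 3′ uridines of new polymerase III transcripts, was not called.

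Other small RNAs could be followed only in part. Of 21 other polymerase III RNAs (such as 5S rRNA, U6 and Y RNAs and vault RNAs), 7 were in the TPM table, each listed at 0 in all 6 samples, and 8 were only in the authors' mean counts. Of 20 small nuclear RNAs and related RNAs of polymerase II, 1 was tested, TERC, the RNA of telomerase. It was called higher by voom with the block (1.00, SE 0.22, adjusted p = 0.0200 from limma voom), with 103, 46.6 and 72.6 normalized reads with vehicle and 181, 111 and 164 with DOX, and had 0.57 without a call after the GC and length correction. Of 26 small nucleolar and Cajal body RNAs in the table, 10 were tested. SCARNA2, which guides modification of spliceosomal RNA, was called higher by voom with the block (0.73, SE 0.20, adjusted p = 0.0384 from limma voom), and its groups overlapped at 639, 526 and 207 against 1160, 582 and 720 normalized reads. Its value was 0.32 without a call after the GC and length correction. SNORD117 was called lower by limma on TPM (-1.10, adjusted p = 0.0105 from limma) and not by voom with the block (-0.79, adjusted p = 0.194 from limma voom), at 16.1 to 51.9 normalized reads. Of 15 mitochondrial genes 0 were in the table, and of the named 7SL and 7SK pseudogene copies 1 was there and was not tested. Of the 5 epithelial markers, 0 were called by limma on TPM and 1, KRT19, was called higher by voom with the block (0.63, SE 0.11, adjusted p = 0.0117 from limma voom), at 2127, 1452 and 2092 normalized reads with vehicle and 3707, 2368 and 2603 with DOX, and had 0.25 without a call after the GC and length correction.

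The neighbours of these genes on the chromosome were measured too, with their spans taken from GENCODE 44 on GRCh38. PARP2, a DNA repair gene, starts 204 bases from the start of RPPH1 on the other strand. It had 0.11 by voom with the block (SE 0.12, adjusted p = 0.566 from limma voom), with 799 to 938 normalized reads with vehicle and 836 to 1087 with DOX. NEMF, a ribosome quality control gene, starts 795 bases beyond the 3′ end of RN7SL3, on the same strand, and had -0.38 (SE 0.10, adjusted p = 0.0311 from limma voom), a fold under the minimum and the other direction from RN7SL3, and it was -0.08 after the GC and length correction. GSTA4, a glutathione transferase gene, starts 316 bases from the start of RN7SK and had -0.41 (SE 0.15, adjusted p = 0.0808 from limma voom). RPS29, a ribosomal protein gene, spans RN7SL1 on the other strand and had 0.48 (SE 0.10, adjusted p = 0.0177 from limma voom), a fold under the minimum. It was called higher after the GC and length correction (0.71, adjusted p = 0.0247 from limma voom), where 1 of 10850 genes was called higher and 7 lower. The strand setting of the count is not given in the sources used here, and without strand, reads of RN7SL1 and of an overlapping RPS29 transcript cannot be told apart.

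The bases before the 7SL genes are shown because the 3 copies, which are near-identical as RNA, have promoters of their own. The 100 bases before each start, 5′ to 3′ on the gene's strand in GRCh38, are at chr14:49586480-49586579 (RN7SL1), chr14:49862850-49862949 (RN7SL2) and chr14:49853915-49854014 (RN7SL3).
RN7SL1: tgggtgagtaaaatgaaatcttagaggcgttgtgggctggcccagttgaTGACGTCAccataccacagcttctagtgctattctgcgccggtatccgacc
RN7SL2: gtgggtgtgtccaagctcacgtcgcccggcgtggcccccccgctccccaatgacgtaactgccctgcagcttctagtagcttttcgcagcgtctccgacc
RN7SL3: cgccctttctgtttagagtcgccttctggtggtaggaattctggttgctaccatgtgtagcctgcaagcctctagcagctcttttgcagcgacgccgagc
The capitals mark a match to the cAMP response element TGACGTCA, searched on both strands, which begins 51 bases before the start of RN7SL1. These letters occur in 1.85% of the 35116 RefSeq promoter windows of 300 bases, and they were not found in the 300-base windows of RN7SL2 and RN7SL3. Only exact matches were sought, so near matches, such as tgacgtaa in the bases of RN7SL2, were not marked. RPPH1 and PARP2 share their window on opposite strands, and it holds the same element once, 217 bases before the start of RPPH1 and 14 before that of PARP2 in the RefSeq promoter table. Other motifs searched on both strands of these windows were the octamer ATGCAAAT (in 1.77% of promoters), the TATA letters TATAAA (11.5%) and the B box letters GGTTCGA (0.86%). The octamer was found 97 bases before the start of RPPH1, TATAAA 32 bases before that of RN7SK on the other strand, and neither was found for the 7SL genes. The matches are a description of letters and no measure of binding.

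Genes whose log2(TPM + 1) followed the log2 of the summed TPM of the 5 RNAs over the 6 samples were sought among 4690 genes of a mean TPM of at least 10. The highest Pearson correlations were those of SCARNA2 (0.96), the histone gene HIST1H2AB (0.82), the ribosomal protein gene RPL36 (0.80), TRAPPC5 (0.79), which encodes a vesicle tethering subunit, and GPX4 (0.78), which encodes a lipid peroxide reductase. The points share the total of their sample, so that 96.9% of the genes had a correlation below 0. SCARNA2 stood at 186, 165 and 80.2 TPM with vehicle and 221, 165 and 188 with DOX, lowest in vehicle replicate 3, where the 5 RNAs also held their smallest share.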

How the data were processed

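RNA-seq values of 3 vehicle and 3 DOX samples were used, grouped by their titles. Per the labels and the study's methods, the authors prepared TruSeq Stranded mRNA libraries, aligned reads to GRCh38/hg38 with STAR and ran DESeq2, with versions not given in the sources used here. The labels name RNeasy and the methods Trizol. The deposited TPM sums to 1000000 per sample over 25528 symbols, and the deposited mean normalized count, a signal pooled over all samples, covers 20215 genes. The authors' log2 fold changes and p-values were not used. No per-sample column was left unused (0 columns).

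The files hold no counts per sample, so the study's count test was not the main one. limma (version 3.58.1, R 4.3.3) was fitted on log2(TPM + 1) for genes whose mean TPM reached 1, with Benjamini-Hochberg adjustment. A fold on that scale understates the change of low genes. Each gene's reads and length and each sample's length deduction were solved from the TPM and the mean count, with the RefSeq lengths of RN7SL1 and RN7SK as fixed points. The length of RPPH1, not so fixed, came out at its RefSeq value of 341. Reads on genes were 16703713, 20316607 and 5459261 in vehicle replicates 1 to 3 and 64624062, 18927036 and 17484754 in DOX replicates 1 to 3. voom was run on these reads with median-of-ratios scaling. GC content came from GENCODE 44 (93.0% of tested genes), with splines of 5 degrees of freedom. Sequences were read from hg38 at RefSeq gene positions. Some markers and sequences are not reported here. Intervals cover counting error only. Both steps were tested on simulated data. Python 3.11.15, pandas 2.3.3, SciPy 1.17.1 and matplotlib 3.10.9 were used.

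After group means were taken off, samples with the same replicate number correlated over genes at 0.57, 0.24 and 0.21 on TPM and 0.50, 0.20 and 0.10 on reads, so replicate numbers were used as a block, given where it changes a call. The block thus rests on these same data, and samples with different numbers were not correlated for comparison. The labels say cultures in triplicate but not what a number stands for. Without the block, p-values measure the spread between these samples. With the block or over pairs, they measure the spread of differences between same-numbered samples, a pairing that the labels do not establish. The members, the gene lists and the alternatives of length deduction, GC correction and left-out replicate numbers were chosen with earlier results of these data known. Named genes were the members, list genes that were called, had the highest TPM or were among the 3 highest or lowest changes of their list, neighbours that start within 5 kb, and the 5 genes most like the summed RNAs. RPS29, whose span holds RN7SL1, was added to that rule.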

Additional observations from a re-analysis of the deposited data

How the results depend on the processing

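The number of genes called on TPM depended on the processing. Against 348 lower and 3 higher, limma called 0 and 0 after median-of-ratios scaling (140 and 129 at an unadjusted p under 0.05 with the fold change), 1 and 0 after rescaling without the 5 RNAs, 46 lower with a pseudocount of 0.1, and 0 and 0 without a filter on low values (1508 and 11 unadjusted). The replicate block gave 2217 and 15, and 205 and 45 with rescaling. voom on recovered reads gave 1 and 0 (417 and 248 unadjusted), 160 higher with the block, 0 and 0 with GC and length correction (153 and 22 unadjusted), and 7 and 1 with that correction and the block. A common length deduction gave 0 and 0, no deduction 1 and 0, and no deduction with the block 575 and 75. Leaving out each sample gave 0 (vehicle replicate 3) to 2363 (DOX replicate 2) lower and 0 to 25 higher on TPM, 1257 lower without vehicle replicate 1, 1 without vehicle replicate 2, 123 without DOX replicate 1 and 138 without DOX replicate 3. By voom it gave 0 to 706 lower and 0 to 79 higher, and leaving out a replicate number in the blocked voom fit (274 lower, 160 higher) gave 5 to 649 lower and 7 to 231 higher, fewest without number 1. The cause was not tested, beyond what each alternative changes by construction.

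Over all genes, the median log2 change of -0.35 became -0.057 after rescaling, with or without the replicate block, -0.20 without the filter, -0.10 without length deduction, with or without the block, and turned to 0.0095 after median-of-ratios scaling, 0.013 by voom, 0.0089 by voom with the block, 0.021 with GC and length correction and 0.022 with that and the block. It lay between -0.43 and -0.22 with each sample left out. The difference in the share of the 5 RNAs (3.37 points without vehicle replicate 3) and the ratios of RN7SL2, RN7SK and RPPH1 kept their direction in all alternatives run, and the log2 ratio of RN7SL3 to RN7SL1 (0.04) ran from -0.091 (without vehicle replicate 2) to 0.23 (without vehicle replicate 3) with each sample left out.

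The 7SL copies stayed above 0 in every alternative run. On TPM with each sample left out RN7SL1 ran from 0.10 to 0.37 and RN7SL2 from 0.15 to 0.59, both lowest without vehicle replicate 3, and RN7SL3 from 0.26 to 0.35. RN7SK, -0.23 on TPM, turned to 0.21 after median-of-ratios scaling, 0.13 after rescaling, 0.22 by voom, each also with the block where run, 0.10 without length deduction and 0.025 with GC and length correction. With each sample left out it ran by voom from -0.034 (without DOX replicate 1) to 0.47, and in the blocked voom fit from -0.031 (without replicate number 1) to 0.42. RPPH1, -0.09 on TPM, turned to 0.35 after median-of-ratios scaling, 0.26 after rescaling, 0.35 by voom, 0.23 without length deduction and 0.053 (0.052 with the block) with GC and length correction, and ran from -0.23 to 0.012 with each sample left out. PARP2, -0.29 on TPM, turned to 0.13, 0.052, 0.10 (0.11 with the block), 0.014 and 0.070 (0.080 with the block) in the same order. POLR2L ran from -0.064 to 0.51, KRT19 from -0.052 to 0.37 and RPS29 from -0.084 to 0.17 with each sample left out, and RPS29 was -0.010 with a common length deduction. Depth limits RN7SL3 most, with 200 reads in vehicle replicate 3.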
